A study of Homo sapiens with 4 samples.

Results

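The regions described here are the control H3K4me3 domains of 10 kb or more. They are the peaks at least 10000 bp wide in the list that the authors called from the H3K4me3 immunoprecipitate (IP) of control MDA-MB-231 cells against the control input. The rule was met by 1079 of the 36677 control peaks (2.94%). The members were thus chosen by their width in the control library, and their control widths, tags and summits are given as a description. The knockout list was not used to choose them. MDA-MB-231 is an established human triple-negative breast cancer line. The series held 1 IP and 1 input library of control cells, and 1 IP and 1 input library of ARID1A knockout cells. The cell line labels of 3 libraries, both IPs among them, end in a number other than that of the line named here. The labels also do not say how the knockout was made or whether it is 1 clone.

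H3K4me3 is trimethylation of lysine 4 of histone H3. It is written by the SET1 and MLL families of methyltransferases, mostly at promoters that are active or rich in CpG dinucleotides. At most promoters the mark is a short block around the transcription start. Broad domains, in which it runs far into the gene body or across neighbouring promoters, are known in many cell types at genes of cell identity and at tumour suppressor genes. ARID1A is a DNA-binding subunit of BAF, a SWI/SNF complex that moves and evicts nucleosomes.

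Both lists are in hg19 coordinates. The gene tables at hand were of another build, so which genes lie in the domains was not analysed here, and the cell line was not checked against its marker genes. The control IP held 27748061 tags and the knockout IP 13391724. The libraries stood apart in kind: 99.4% of the knockout tags lay in called peaks, against 62.1% of the control tags, and the median knockout peak was 300 bp wide, against 2968 bp. Of the 23588 knockout peaks 55% were exactly 300 bp wide, the fragment length used in calling. A peak of this size cannot cover a wide domain. The knockout list is therefore used below as a set of positions and tags. Copies of 1 fragment, where they were not removed, would count as separate tags in every knockout tag count given here; their part was not tested. With 1 library per genotype there was no replicate check and no test of genotype. Intervals of shares (Clopper-Pearson) and of counts and rates (Poisson) are exact 95% intervals that cover counting error only. The interval of a ratio of rates was converted from a Clopper-Pearson interval. The 95% interval of a median was taken from the ranked values, so it reflects the spread of those values and not counting error. Domains of 1 library are not replicates.

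The members were the long tail of the control list. Their widths ran from 10000 to 72547 bp, with a median of 11982 bp and quartiles of 10796 and 14433 bp. A width of 20 kb or more was reached by 79 of them. They covered 14.6 Mb, which was 10.5% of the length in control peaks. They held 2677331 control tags, or 9.65% of the control IP. The median member held 2287 tags (quartiles 1670 and 3055, lowest 459, highest 15546).

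The members were also dense in tags. The median was 180 control tags per kb (quartiles 139 and 223), against 159 (quartiles 97.5 and 203) in the 11808 control peaks of 4 to under 10 kb and 56.5 in all control peaks. The 95% interval of the members' median was 176 to 185 tags per kb, and single members varied with an SD of 66.1. Within the members density did not climb with width: the median was 181 tags per kb at 10 to just under 12 kb, 176 at 12 to just under 15 kb, 178 at 15 to just under 20 kb and 192 at 20 kb or more. At 4 to just under 6 kb it was lower, at 144. The members were thus longer stretches of about the tag density already reached by peaks of 6 to 8 kb, where the median was 178.

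**Figure D1:**
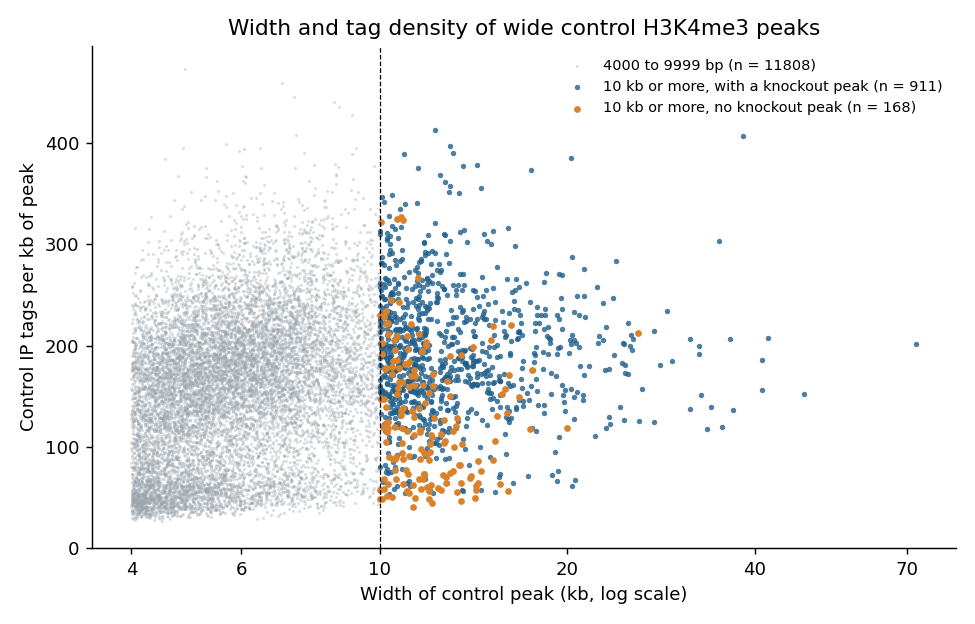
Control tags per kb (vertical axis) against width in kb (horizontal axis, log scale) for each control peak of 4000 bp or more; the dashed line is the 10 kb limit. Members with a knockout peak (911, blue) and without one (168, orange) share the density range of the 11808 narrower peaks (grey), and the orange points lie lower, with a median of 118 tags per kb against 188 for the blue.

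The width limit cut through a continuous distribution. The narrowest members, at 10000 to 10010 bp, had 48.9 to 310 control tags per kb. The widest control peaks left out, at 9990 to 9997 bp, had 185 to 335. Of the 5 members just inside the limit 3 held a knockout peak, and all 5 peaks just outside it did. These counts are too small to compare. In the wider steps the shares were 80.4% (76.9 to 83.7%) at 10 to just under 12 kb and 76.5% (74.1 to 78.8%) at 8 to just under 10 kb.

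The widest members shared no single shape. The widest, chr5:14138379-14210925, spanned 72547 bp with 14620 control tags and 4682 knockout tags in 7 peaks. Its control summit, the position of highest signal, lay 6283 bp from its lower end, at 8.66% of its width. Next came chr19:1231600-1279509 with 7302 control tags over 47910 bp and 5446 knockout tags in 6 peaks. Chromosome 11 gave 7 of the 10 widest. On it, chr11:62303834-62345746 held 8703 control and 4830 knockout tags over 41913 bp, and chr11:64608977-64650064 held 6427 control and 1311 knockout tags over 41088 bp. The 2 are nearly equal in width, and the knockout list had 7 peaks in the first and 2 in the second.

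The remaining chromosome 11 domains among the widest ran from 34986 to 41060 bp. One of them, chr11:65652715-65690908, had the most control tags of any member, 15546 over 38194 bp. This was 407 tags per kb, the second highest density among the members, and it held 6036 knockout tags in 8 peaks. By contrast chr11:65180982-65217457, at 36476 bp, held 7538 control tags and only 815 knockout tags in 2 peaks. The widest member of the X chromosome, chrX:45607698-45644598, spanned 36901 bp with 5041 control and 2619 knockout tags. Its summit lay near the middle, at 48.7% of its width from the nearer end.

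Density had its own extremes. The densest member, on chromosome 8, spanned 12288 bp with 5074 control tags, or 413 per kb, and 3051 knockout tags in 2 peaks. The other domains near 390 tags per kb were on chromosome 5: chr5:43059793-43072748 held 5144 control and 4767 knockout tags, chr5:36869824-36882923 held 5113 and 2433, and chr5:32168229-32179153 held 4254 and 2933. At the low end, the 5 sparsest members had 40.5 to 48.9 control tags per kb and no knockout peak. They were chr13:46738738-46750057 with 459 tags, chr11:12194602-12206741 with 538, chr17:46312872-46326385 with 634, chr1:16498697-16510716 with 587 and chr5:14228900-14238899 with 489. The last of these is 10000 bp wide and lies 17974 bp above the widest member of all.

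Domains of 10 kb or more were found on 23 of the 24 chromosomes in the list, and unevenly so. Chromosomes 1, 17, 19, 11 and 20 held the most, with 118, 114, 92, 90 and 70. These 5 held 44.9% of the members and 26.3% of all control peaks. As a share of the chromosome's own control peaks, chromosome 20 came first at 7.59% (5.97 to 9.50%), followed by chromosome 17 at 6.61% (5.48 to 7.89%), 19 at 5.92% (4.8 to 7.21%) and 11 at 5.21% (4.21 to 6.37%). The intervals of these 4 overlap. Chromosome 1 owed its number to its 3710 control peaks, of which 3.18% were members. The X chromosome had 9 members among 980 peaks (0.918%, 0.421 to 1.74%), and chromosomes 4, 13, 18 and 21 stood between 1.02% and 1.30%. None of the 30 control peaks on the Y chromosome was a member, which allows a share of up to 11.6%.

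**Figure D2:**
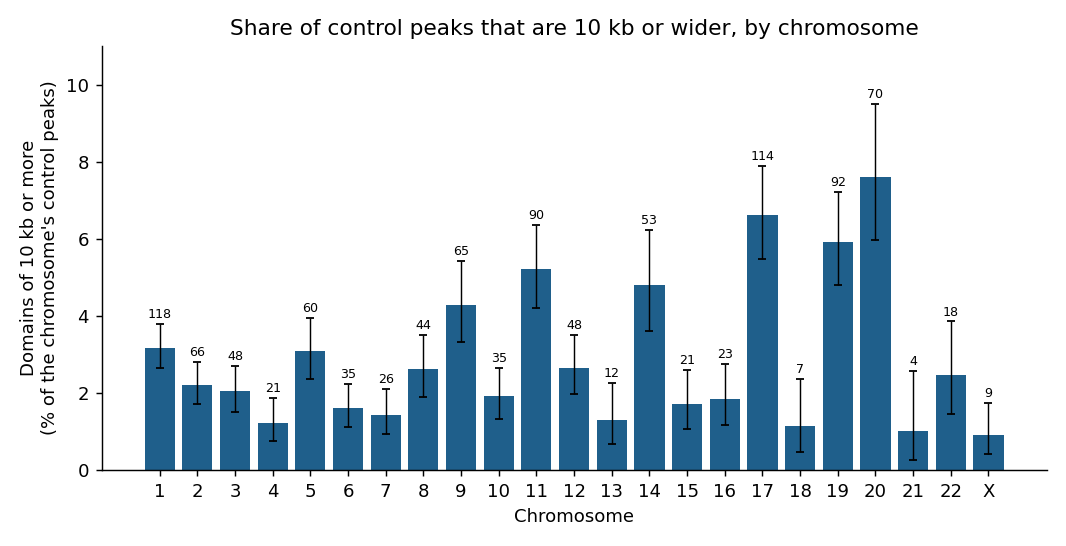
Domains of 10 kb or more as a percentage of the control peaks of each chromosome (bars, with exact 95% binomial intervals); the number over each bar is the count of members, and the Y chromosome, with none, is left out. Chromosomes 20, 17, 19 and 11 stand highest, at 7.59, 6.61, 5.92 and 5.21%.

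Within chromosomes the members were clustered. The median gap between neighbouring members was 514706 bp, with quartiles of 87438 and 2338862 bp. Another member lay within 100 kb of 439 members (40.7%, 37.7 to 43.7%). For control peaks of 4 to under 10 kb, a domain of 10 kb or more lay within 100 kb of 2281 (19.3%, 18.6 to 20%). Members also had more control peaks of any width around them, with a median of 7 within 100 kb on either side against 5. Their nearest control peak of any width was a median of 5368 bp away, against 11150 bp, and for 250 members (23.2%, 20.7 to 25.8%) it was under 1 kb away, against 13.2% (12.6 to 13.8%).

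Joined wherever the gap was under 100 kb, the 439 members formed 161 runs, 23 of them with 4 members or more. The longest, chr11:65073568-65791283, held 15 members. These filled 37.6% of its 717716 bp and held 60267 control tags and 25458 knockout tags. A knockout peak was held by 14 of the 15, beside 84.4% of all members. Further runs on chromosome 11 were chr11:67026887-67356088, with 9 members, and chr11:62303834-62629673, with 7 members over 48.1% of its length. Chromosome 17 had a run of 9, chr17:7116614-7596275, in which all 9 held a knockout peak, a small count beside the same 84.4%. The most compact of the 8 largest runs was chr9:140015203-140177776, where 6 members filled 60.0% of the length. In windows of 5 Mb, the part of chromosome 11 from 65 to 70 Mb held 34 members among 156 control peaks (21.8%), and the part from 60 to 65 Mb held 23 among 124 (18.5%).

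Some borders between members were a matter of a few bases. The closest pair, chr1:181053118-181065535 and chr1:181065543-181077158, was parted by 7 bp. The first held 3068 control tags and 3253 knockout tags, in 1 knockout peak of 2080 bp. The second held 1357 control tags and no knockout peak. On chromosome 20 a gap of 42 bp parted chr20:30277105-30296329, with 1275 control and 1094 knockout tags, from chr20:30296372-30313850, with 6520 and 4425. On chromosome 19 a gap of 71 bp lay between chr19:42769002-42779494 (1413 control and 843 knockout tags) and chr19:42779566-42794568 (2296 and 1813). In these pairs the part with more control tags also had more knockout tags. At the other extreme, chr6:108877878-108889028 was 20461193 bp from the next member and held 3038 control and 1631 knockout tags, and the 2 most isolated members were both on the X chromosome.

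The control summit lay off centre more often in the members than in narrower peaks. Its median distance to the nearer edge was 4144 bp, or 32.8% of the width, against 2193 bp and 40.3% in peaks of 4 to under 10 kb. A summit in the outer 20% of the width at either end was found in 133 members (12.3%, 10.4 to 14.4%) and in 3.40% (3.08 to 3.74%) of the narrower class. Summits spread evenly along the peaks would give 40%. The share rose along the width classes, from 7.68% at 10 to just under 12 kb to 34.2% (23.9 to 45.7%) at 20 kb or more. Neither end was favoured: 510 members (47.3%, 44.3 to 50.3%) had the summit below the midpoint of the domain. No member had its summit within 1 kb of an end.

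Knockout peaks were found in most of the domains. Of the 1079 members 911 (84.4%) held at least 1 knockout peak, against 28.4% of all control peaks and 58.3% of control peaks of 4 to under 10 kb. At least 2 were held by 595 members (55.1%, 52.1 to 58.1%), against 7.8% of all control peaks and 17.9% of the narrower class. At least 3 were held by 282 members (26.1%, 23.5 to 28.9%), against 1.82% and 3.17%. Exactly 1 was held by 316 members and exactly 2 by 313. Of the 67 control peaks with 5 or more, 62 were members.

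The longer a domain, the more room it has for a peak, and for the length covered the classes differed by less than the counting error. The members held 1.38 knockout peaks per 10 kb (1.33 to 1.45), and the control peaks of 4 to under 10 kb held 1.34 (1.32 to 1.37). The ratio of these rates was 1.03 (0.981 to 1.08). It was 0.981 against peaks of 6 to under 10 kb. It was 1.17 when a knockout peak within 1 kb of the domain was enough, with rates of 1.23 and 1.04. Those rates count 1 kb at each end as domain length, which is a larger addition, relative to width, for a narrower peak. Within the members the rate was 1.38 at 10 to just under 12 kb, 1.32 at 12 to just under 15 kb, 1.49 at 15 to just under 20 kb and 1.39 at 20 kb or more, with intervals that overlap. Over the same steps the share with a knockout peak rose from 80.4% through 85.1% and 89.8% to 98.7%. Of the 79 members of 20 kb or more, 78 held one. The exception, chr12:122226059-122252014, was chosen by the rule for strong members without a peak and is described below.

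**Figure D3:**
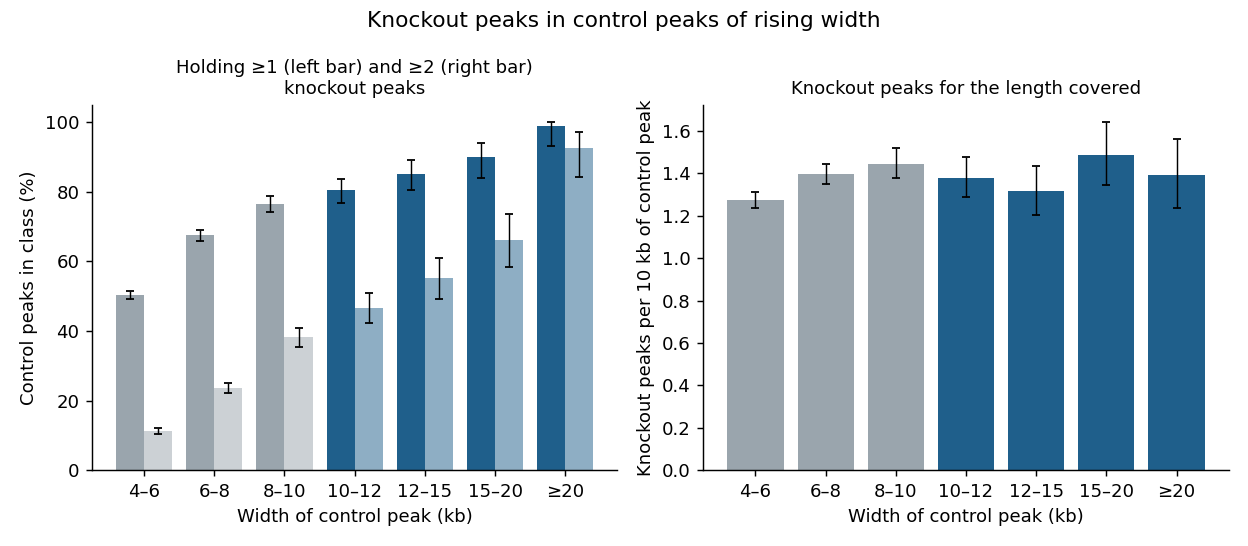
Left, percentage of control peaks in each width class (kb) that held at least 1 knockout peak (left bar of each pair) and at least 2 (right, paler bar); right, knockout peaks per 10 kb of control peak. Members are blue, narrower control peaks grey, and lines are exact 95% intervals; the share climbs from 50.2% to 98.7% while the rate stays between 1.27 and 1.49.

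The rate of knockout peaks rose with the control tag density. Members under 75 control tags per kb held 0.448 knockout peaks per 10 kb (0.321 to 0.608), and 29 of 72 (40.3%) held any. At 125 to just under 175 tags per kb the rate was 1.35 (1.24 to 1.47), and at 225 or more it was 1.82 (1.68 to 1.96), where 251 of 261 members (96.2%) held a peak. The narrower class ran from 0.426 to 1.90 over the same steps. At 75 to just under 125 tags per kb the rate in members was below that of the narrower class, at 0.763 (0.635 to 0.910) against 0.999 (0.938 to 1.06). At 175 to just under 225 it was 1.5 (1.39 to 1.61) against 1.68 (1.62 to 1.74). A higher density in a control domain thus went with more knockout positions in both classes.

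The single knockout peaks in the members were much like those in narrower control peaks. The 2027 of them had a median of 508 tags (quartiles 237 and 936), against 502 (234 and 906) in peaks of 4 to under 10 kb, and 336 for knockout peaks outside all control peaks. The median width was 434 bp against 379 bp. A width of exactly 300 bp was found for 869 (42.9%, 40.7 to 45.1%), against 45.1% (44.1 to 46.1%) in the narrower class and 66.7% (65.7 to 67.6%) outside control peaks. A width of 1 kb or more was found for 179 (8.83%, 7.63 to 10.2%), against 6.76% (6.26 to 7.29%). Together they covered 7.27% of the length of the members.

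The members held 15.5% of the control tags in control peaks and 10.6% of the knockout tags in knockout peaks. These shares have unlike bases, since control peaks held only 69.3% of the knockout tags in knockout peaks. Knockout peaks in control peaks held 9216806 tags, of which 1411421 were in members. Of all IP tags the members held 9.65% and 10.5%, since tags outside peaks were a much larger part of the control library. Members with a knockout peak held a median of 2410 control tags and 1270 knockout tags. Per domain, knockout over control tags as a log2 ratio had a median of -0.99 (SD 1.47, n = 911 domains) on raw tags and of 0.06 after division by the library totals, so its sign rests on the scaling. In control peaks of 4 to under 10 kb the medians were -0.56 and 0.49. These medians leave out domains with no knockout peak, which were a larger part of the narrower class. Once such domains were included, the order of the classes depended on the measure. With such domains counted as 0, the median of knockout over control tags was 0.410 in all 1079 members and 0.190 in all 11808 narrower peaks. Summed over all domains it was 0.527 and 0.565, with the narrower class again the higher. More knockout than control tags were held by 167 members, which was 18.3% (15.9 to 21.0%) of those with a knockout peak and 15.5% (13.4 to 17.8%) of all members. The corresponding shares of the narrower class were 33.7% (32.6 to 34.8%) and 19.6% (18.9 to 20.4%).

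Members at the ends of this range had very unlike pairs of values. The highest raw log2 ratio, 2.13, was at chr10:121421535-121432466, with 693 control tags and 3033 knockout tags in 3 peaks. The next was 1.70 at chr5:10548778-10559038, with 805 and 2609. The lowest, -7.82, was at chr20:33861874-33876016, with 3609 control tags and 16 knockout tags in 1 peak. Both ends were chosen after the values were seen. The most knockout tags of any member, 7642, lay in 4 peaks of chr17:62645200-62669639, which held 4470 control tags. Second was chr17:75273723-75288941, with 6791 knockout and 2478 control tags.

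Along the domains the knockout summits were spread more widely than in narrower peaks. Of the 2016 knockout summits that lay inside a member, 466 (23.1%, 21.3 to 25%) were in the outer 20% of the width at either end, against 1034 of 9337 (11.1%, 10.4 to 11.7%) in control peaks of 4 to under 10 kb. With the 11 and 72 summits just past an edge counted as outer, the shares were 23.5% and 11.8%. With the width cut into 10 equal bins, each bin from the third to the eighth held 12 to 13.6% of these summits in the members. In the narrower class the middle bins held 21.2 and 20.9%, and the third and the eighth 7.58 and 8.43%. The first and the last bin were sparse in both, at 2.98 and 3.47% in the members and 2.05 and 1.93% in the narrower class. The flat part of the knockout profile has its like in the control summits, of which 12 to 15.5% lay in each bin from the third to the eighth.

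**Figure D4:**
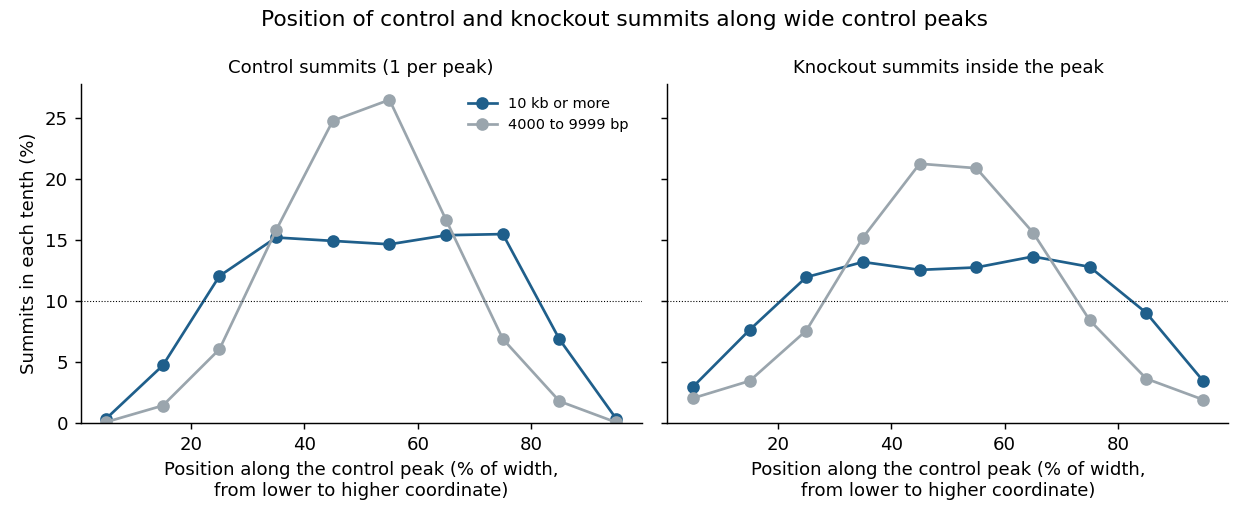
Percentage of control summits (left) and of knockout summits inside the peak (right) in each of 10 equal bins of the width, for members (blue) and control peaks of 4 to under 10 kb (grey); the dotted line marks 10%, an even spread. Both profiles of the members are flat between the third and the eighth bin, while those of the narrower peaks rise to 26.5% and 21.2% in the middle.

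The strongest point of the control domain was also where knockout summits were densest. The median distance from a knockout summit to the control summit was 1509 bp (quartiles 493 and 4165 bp), against 564 bp (178 and 1183 bp) in the narrower class. The nearest knockout summit of each domain was closer, at a median of 414 bp against 345 bp, and lay within 1 kb in 691 of 911 members (75.9%, 72.9 to 78.6%). These values were not matched for the number of knockout peaks, a mean of 1.88 per member and 0.797 per narrower peak. Of all knockout summits, 40.6% lay within 1 kb of the control summit in members and 69.5% in the narrower class. Within 500 bp of the control summit the members held 4.75 knockout summits per 10 kb (4.34 to 5.17). The rate fell to 2.86 at 500 to 1000 bp, 1.58 at 1 to 2 kb and 0.992 at 2 to 3 kb. It then stayed level, at 0.761 (0.670 to 0.862) from 3 to 5 kb, 0.795 from 5 to 10 kb and 0.847 (0.690 to 1.03) beyond 10 kb. In the narrower class the rate was lower in every step, from 3.67 (3.56 to 3.78) within 500 bp to 0.364 (0.325 to 0.406) at 3 to 5 kb. The overall rates of the classes were nonetheless close, since more of the length of a wide domain lies far from its summit. Knockout peaks near the summit also had more tags, with a median of 666 within 500 bp and 412 beyond 10 kb.

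**Figure D5:**
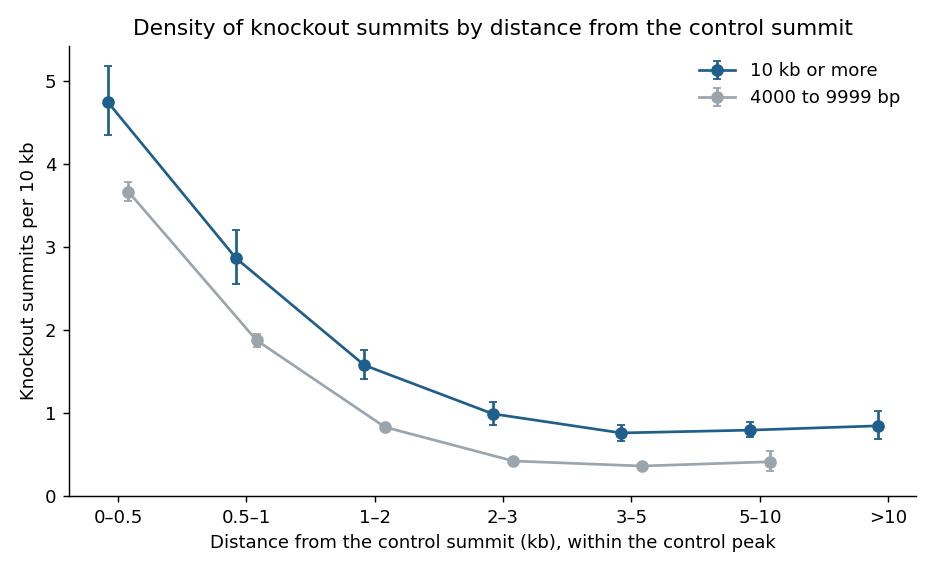
Knockout summits per 10 kb of control peak (vertical axis) by distance from the control summit in kb (horizontal axis), for members (blue) and control peaks of 4 to under 10 kb (grey); points carry exact 95% Poisson intervals. Members fall from 4.75 to 0.761 by 3 to 5 kb and stay near that level beyond 10 kb, a distance that the narrower peaks do not reach.

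Restricting the comparison changed the gap between the classes; both restrictions were chosen after the values were seen. Among control peaks of 175 to just under 225 tags per kb, the rate within 500 bp was 4.94 in 320 members and 4.98 in 2988 narrower peaks. At 500 to 1000 bp it was 3.97 (3.31 to 4.72) against 2.46 (2.29 to 2.65). At 1 to 2 kb it was 1.69 (1.39 to 2.04) against 0.978 (0.898 to 1.06), and at 2 to 3 kb 1.15 (0.902 to 1.46) against 0.452 (0.389 to 0.523). When positions less than 2 kb from an edge were left out instead, the rates within 500 bp were 4.81 (4.4 to 5.25) in the members and 3.57 (3.45 to 3.70) in the narrower class, and those at 500 to 1000 bp 2.97 (2.65 to 3.33) and 2.31 (2.19 to 2.43). The rates at 1 to 2 kb were 1.75 (1.56 to 1.95) and 1.44 (1.35 to 1.54), and those at 3 to 5 kb 0.956 (0.831 to 1.09) and 0.795 (0.638 to 0.978), with overlapping intervals at the latter.

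Edges of the domains were poor in knockout summits. In the outermost 1 kb of the members the rate was 0.283 per 10 kb (0.216 to 0.363), in the next 1 kb 0.741 (0.631 to 0.866), and from 2 to 5 kb inside it was 1.84 (1.74 to 1.95). Just outside, in stretches of no control peak, the rate was 0.141 (0.0936 to 0.204) in the first 1 kb and 0.0951 (0.0754 to 0.118) at 5 to 10 kb. The corresponding rates of the narrower class were 0.330, 1.22 and 2.50 (2.43 to 2.56) inside and 0.151 and 0.0750 outside. From 2 to 5 kb outside, the rate was 0.151 (0.119 to 0.188) beside the members and 0.0880 (0.0808 to 0.0956) beside the narrower peaks.

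Where a member held several knockout peaks, they were often far apart. In the 595 members with at least 2, the first and last knockout summit were a median of 4313 bp apart, or 35.2% of the domain, against 1550 bp and 24.2% in the narrower class. Neighbouring summits in a domain were a median of 1932 bp apart (quartiles 1183 and 4062 bp), against 1307 bp. Knockout summits lay on both sides of the control summit in 391 of the 595 members (65.7%, 61.7 to 69.5%). This share is given for the members alone and is not read as particular to them. Neither the spans nor this share were matched for the number of knockout peaks. At least 3 were held by 282 of the 595, against 374 of 2110 in the narrower class. In the 313 members with exactly 2 knockout peaks, the stronger held a median of 71.5% of their tags and was the one nearer the control summit in 195 (62.3%, 56.7 to 67.7%), against 57.2% (54.8 to 59.5%) in the narrower class.

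In domains with the summit near an end, both sides of the summit held knockout peaks. The 133 members with the summit in the outer 20% held 212 knockout summits over 1861 kb on the long side and 47 over 326 kb on the short side. Per 10 kb this was 1.14 (0.991 to 1.30) and 1.44 (1.06 to 1.92), with overlapping intervals.

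Single domains show how the knockout peaks are strung out. In the widest member, 4 of the 7 knockout peaks lay within 4 kb of the control summit, with 537, 512, 1223 and 141 tags. The others, with 580, 513 and 1176 tags, lay 9240, 21706 and 34678 bp from it, and nothing was called beyond 40961 bp from the lower end. In chr11:65652715-65690908 the 8 peaks ran from 29.7% to 93.0% of the width and their tags did not peak at the control summit: the nearest held 224 tags and the strongest, 8233 bp away, held 1492. The most knockout peaks, 9, were in chr7:130572312-130605802, where 3941 control tags stood against 3939 knockout tags. Of these 9 peaks 6 were exactly 300 bp wide, and the strongest, with 1050 tags, was near the upper end.

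In chr17:75273723-75288941, with 8 peaks in 15219 bp, the knockout tags were spread over the peaks, the highest with 1598 and 1589. In chr1:156081952-156101559, also with 8 peaks, 5278 control tags stood against 4046 knockout tags, of which 1314 and 1284 were in peaks 3110 and 9314 bp from the control summit. The opposite layout was seen at chr19:58322498-58335728, where 5201 of 6075 knockout tags lay in 1 peak of 1219 bp, 234 bp from the control summit.

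No knockout peak was found in 168 members. Compared with the 911 others they were nearly as wide, at a median of 11460 bp against 12121 bp, and less dense, at 118 control tags per kb against 188. Some were dense all the same. The 5 with the most control tags were chr12:122226059-122252014 (5524 tags), chr2:110360280-110376517 (3577), chr11:66883691-66894496 (3531), chr4:39452885-39463797 (3529) and chr10:25004858-25015511 (3465). The last 3 had 323 to 327 control tags per kb, far above the median of the members with a knockout peak. The knockout list gives no tags where it has no peak, so tags under its threshold in these domains are unknown.

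Chromosomes differed in how many of their members held a knockout peak. Of the 18 chromosomes with at least 20 members, chromosome 19 had the highest share, 89 of 92 (96.7%, 90.8 to 99.3%). Of the other chromosomes with many members, 17 stood at 104 of 114 (91.2%, 84.5 to 95.7%). Chromosomes 11, 20 and 1 had 87.8%, 81.4% and 79.7%. The lowest was chromosome 4, at 11 of 21 (52.4%, 29.8 to 74.3%). In control peaks of 4 to under 10 kb the shares were 73.7% on chromosome 19, 60.6% on 17 and 55.5% on 11. They were 57.6% on chromosome 1, 54.3% on 20 and 54.6% on 4. Chromosome 19 was the highest in this class as well. Per 10 kb, chromosomes 19 and 17 held 1.67 (1.45 to 1.91) and 1.66 (1.47 to 1.88) knockout peaks, and chromosome 20 held 1.07 (0.875 to 1.30). The highest rate among these 18 was on chromosome 6, at 1.75 (1.4 to 2.17). The narrower control peaks of chromosomes 19 and 20 had rates of 1.68 and 1.16, so their order was the same, while chromosome 17 stood at 1.35 (1.24 to 1.46) there. The control density of these 3 stood in the opposite order, with member medians of 173 tags per kb on chromosome 19, 186 on 17 and 208 on 20.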

How the data were processed

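H3K4me3 ChIP-seq was made from micrococcal nuclease digested chromatin, per the labels' protocols. Alignment tool, peak caller and build are listed in the submitters' processing notes as Bowtie2 2.2.4, MACS 1.4.3 and hg19. Per the file headers, MACS compared IP with input within each genotype (p cutoff 0.0001, fragment length 300 bp), with the larger library scaled to the smaller. The input libraries carry IgG as antibody label, the knockout list has K6 as library name in its header, and 3 cell line labels end in other numbers than the line's name. The deposited tag counts are raw IP tags per peak. The deposited score, fold enrichment ratio and FDR percent were used only to filter within a list. The sources used here do not say if duplicate tags were removed.

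Control peaks of at least 10000 bp were taken as members and those of 4000 to 9999 bp as the comparison. A knockout peak was held by a domain when they shared at least 1 bp, as checked against bedtools 2.31.1. Rates by distance count knockout summits over the domain length available. The assignment of knockout peaks to domains was tested on simulated 300 bp peaks placed wholly inside control peaks. Counts by distance, edge and position were not tested in this way. The scripts ran under Python 3.11.15 with pandas 2.3.3 for tables, numpy 2.4.6, scipy 1.17.1 for intervals, and matplotlib 3.10.9 for plots. The named regions follow a fixed rule: the widest, densest, sparsest, closest and most isolated members, those at the limit, those with the most knockout tags or peaks, and the strongest without one. The members, rule and alternatives were chosen with earlier results of these data known. Gene lists planned for an hg19 annotation were not used.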

Additional observations from a re-analysis of the deposited data

How the results depend on the processing

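Of 42 alternative values of the main measures, beside the restricted rates by distance given with their results, 25 stayed within the counting interval of the reported value (within 1.5 times for numbers of domains), and 17 did not. The number of domains, 1079 as reported, was 2363 with a limit of 8 kb and 532 with 12 kb. The share with a knockout peak was 80.1% and 88.5% with these limits, and 66.3% with knockout peaks of exactly 300 bp left out, against 37.6% in control peaks of 4 to under 10 kb. The rate per 10 kb was 0.791 with only such wider peaks. It was 1.23 when a knockout peak within 1 kb was enough and 1 kb at each end was counted as length. The ratio of the rates of the classes was 1.17 under the latter and 0.981 against peaks of 6 to under 10 kb. The median control density was 156 tags per kb after control peaks within 1 kb were merged. The median summit distance from the nearer edge was 35.8% and 30.3% of the width with limits of 8 and 12 kb. By construction, a summit in the outer 10% of the width (0.741%) or within 1 kb of an end (0%) was rarer than in the outer 20%. The median distance from knockout to control summit, 1509 bp as reported, was 414 bp for the nearest knockout summit of each domain and 873 bp for the one with the most tags. Knockout over control tags per domain, as a log2 ratio, changed sign from -0.99 to 0.063 after division by the library totals. Some of these shifts also follow by construction. A lower width limit can only add domains, and a higher one can only remove them. Leaving out knockout peaks can only lower the share and the rate. Division by the library totals adds the same constant to every log2 ratio. For the remaining shifts, other than those with the added length, the cause was not tested. Of the 49 named domains, the number of knockout peaks moved by over 1.5 times in 15 with only the wider knockout peaks, and in none under the other settings tried for them, the knockout summit inside and a knockout FDR of 1% or less. No paired analysis was possible because each group has 1 library, and none could be left out.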
